A study of Mus musculus with 2 samples.

Results

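Foxp4, a transcription factor of the forkhead family, was mapped by chromatin immunoprecipitation followed by sequencing, and the peaks described here are those whose nearest gene is a microRNA gene. A peak was included when the gene named for it in the deposited list was Mir followed by a number, or Mirlet7 followed by a letter. Mir21a, which has 9 peaks, was left out. This gave 110 of 3317 peaks, assigned to 80 names: 79 microRNA genes and Mir22hg, the host transcript of Mir22.

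The starting material was stromal vascular cells from the inguinal white fat (iWAT) of C57BL/6 mice, the non-adipocyte cells that remain once fat cells are removed, among them the progenitors of beige adipocytes. They were grown for 3 days in 20% serum and induced for 48 h in 10% serum. The induction medium held the PPARγ agonist troglitazone (5 µM), thyroid hormone T3 (50 nM), dexamethasone (1 µM), insulin (5 µg/ml) and isobutylmethylxanthine (0.5 mM). The series held 1 Foxp4 library and 1 input library from such cells, and the labels name no genetic change in them. The input was not analysed here and read depth is unknown, so there is no error between replicates, and the exact 95% binomial intervals below cover counting over peaks or genes of 1 library.

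MicroRNAs are short RNAs that are cut from a hairpin in a longer primary transcript and that pair with messenger RNAs, mostly through the seed, the bases near their 5′ end, to lower their translation and stability. Many hairpins lie in introns of protein-coding or non-coding host genes and are made with the host's transcript, others have transcripts of their own, and in adipose progenitors they are among the regulators of differentiation and of the brown and beige programmes. The start of a microRNA gene in the annotation is that of the hairpin, which can lie far from the promoter of the primary transcript. Distances given below for microRNA genes are therefore distances to hairpins. Those for Mir22hg, for the genes that make or use microRNAs and over all peaks run to the start of the gene named for the peak.

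A selection of mature sequences is shown, from microRNAs whose genes are described below for a peak among the 15 highest members, a peak within 10 kb, several peaks, a place on the let-7 or adipose list, or a shared seed. miR-101b-3p is added for comparison with miR-101a-3p. They are given 5′ to 3′ from RefSeq for GRCm38.p6, with the seed (bases 2 to 8) in capitals.
mmu-miR-7007-5p: uCAGAAGAggcaguggaggagau
mmu-miR-3092-5p: aGGGGAAAaugccuuucuccca
mmu-miR-1231-5p: uCUGGGCAgagcugcaggagaga
mmu-miR-582-5p: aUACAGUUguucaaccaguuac
mmu-miR-199a-5p: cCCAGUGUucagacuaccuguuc
mmu-miR-199a-3p: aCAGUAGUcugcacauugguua
mmu-miR-6962-5p: aAGGACCUggugggagaucu
mmu-miR-100-5p: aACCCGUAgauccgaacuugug
mmu-let-7a-5p: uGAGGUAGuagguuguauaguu
mmu-let-7i-5p: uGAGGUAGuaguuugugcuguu
mmu-miR-15a-5p: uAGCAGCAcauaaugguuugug
mmu-miR-6353: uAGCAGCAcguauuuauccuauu
mmu-miR-6346: uAGCAGGUgucugcaaugccaa
mmu-miR-6350: uAGCAGGUgcauuauaaauau
mmu-miR-148a-3p: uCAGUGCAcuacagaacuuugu
mmu-miR-29b-3p: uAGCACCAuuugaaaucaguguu
mmu-miR-221-3p: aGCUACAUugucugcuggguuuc
mmu-miR-101a-3p: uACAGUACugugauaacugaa
mmu-miR-101b-3p: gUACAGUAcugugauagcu

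Of the 1227 microRNA genes in the RefSeq gene table (Mir21a left out), 79 were the nearest gene of at least 1 peak (6.44%), beside 1993 of 21896 protein-coding genes (9.1%). For 4 of the 79 (Mir5098, Mir297c, Mir466h and Mir466d) the table places the gene elsewhere than beside the peak, which leaves 75 genes (6.11%). Most had a single peak: 60 of the 80 names had 1, 13 had 2, 5 had 3, Mir1904 had 4 and Mir3092 had 5.

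The authors' score, a whole number of unstated unit, was used to rank peaks within this list. The 110 peaks had a median score of 71 (interval 59 to 77, range 15 to 1110), beside 65 over all peaks (62 to 66). A score of 100 or more was held by 29 of them (26.4%, interval 18.4 to 35.6), beside 27% of all peaks. Their strength was thus close to that of the list as a whole, with 1 among the 10 highest peaks, 2 among the 100 highest and 13 among the 500 highest. The median width was 384 bp, against 393 bp over all peaks.

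Few of these peaks lay close to a hairpin. Their median distance was 33.1 kb (interval 27.9 to 60.5, range 0.384 to 583), beside 30.4 kb over all peaks. Within 10 kb lay 20 of 110 (18.2%, interval 11.5 to 26.7), beside 27.7% of all peaks, and within 1 kb lay 5 (4.55%, 1.49 to 10.3), beside 11%. Beyond 100 kb lay 34 (30.9%, 22.4 to 40.4), beside 21.3%. No member overlapped a hairpin.

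**Figure D1:**
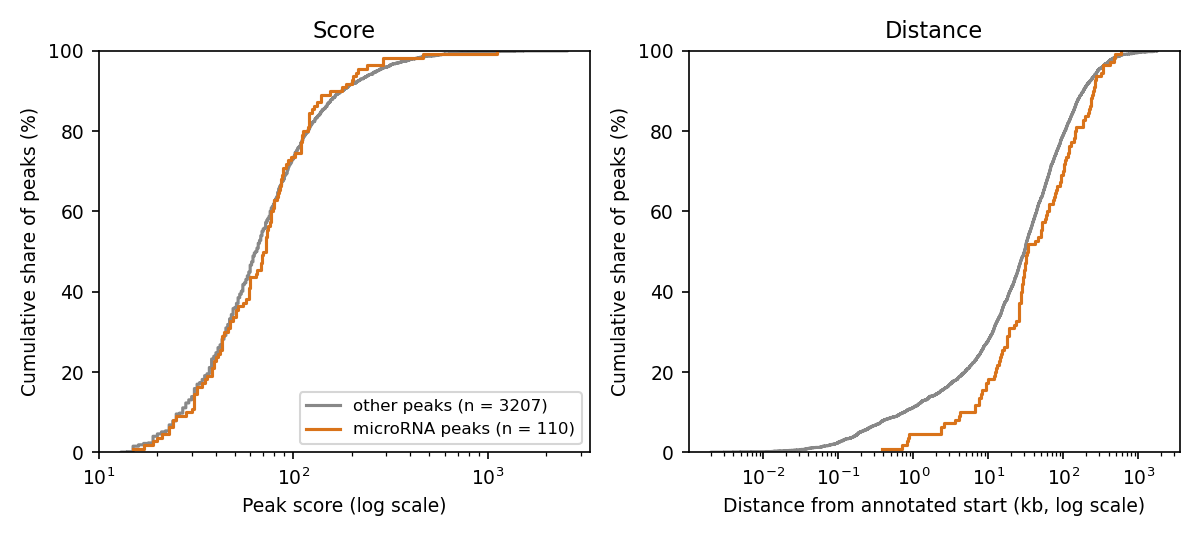
Cumulative share of peaks (%) by score and by absolute distance to the named start (kb, log scales), for the 110 microRNA peaks and the 3207 other peaks. The score curves run close together, with medians of 71 and 64, whereas the microRNA curve holds fewer peaks at short distances, 18.2% against 28.1% within 10 kb.

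By annotation, 53 of the peaks were intergenic (48.2%, interval 38.6 to 57.9), beside 50.5% of all peaks, and 52 lay in introns (47.3%, 37.7 to 57), beside 38.3%. The promoter class held 2 (1.82%, 0.221 to 6.41), beside 8.38%. Intron 1 held 6 (5.45%, 2.03 to 11.5), beside 14.2% of all peaks. A peak closer to the start of another gene is assigned to that gene and cannot be a member, and the same assignment holds for all peaks. The starts of members are those of hairpins, Mir22hg apart. Whether either bears on the lower shares at promoters, in intron 1 and at short distances was not tested. The peaks lay upstream of the hairpin in 47 cases (42.7%), beside 47% of all peaks.

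The midpoint lay inside a protein-coding gene for 53 of the peaks (48.2%, interval 38.6 to 57.9), beside 43.2% of all peaks, and these 53 were spread over 39 host genes. Inside such genes the median distance was 28.1 kb (17.9 to 41.2) and the median score 68 (51 to 80). The 57 peaks outside them had a median distance of 77.4 kb (31.6 to 142) and a median score of 72 (52 to 85). The peak and the hairpin shared their host in 50 cases. In 38 cases neither lay in a protein-coding gene, and in 14 the hairpin lay in one and the peak in none. Of the 39 hosts, 35 had no peak assigned to themselves within their own span, and 30 had no peak under their own name anywhere in the list. The other 9 were the nearest gene of at least 1 peak, beside 1993 of 21896 protein-coding genes (9.1%). The hosts were taken because each holds a peak assigned to a microRNA gene, whereas the protein-coding genes were not selected. How many of all genes that hold a peak have none assigned to themselves was not counted.

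**Figure D2:**
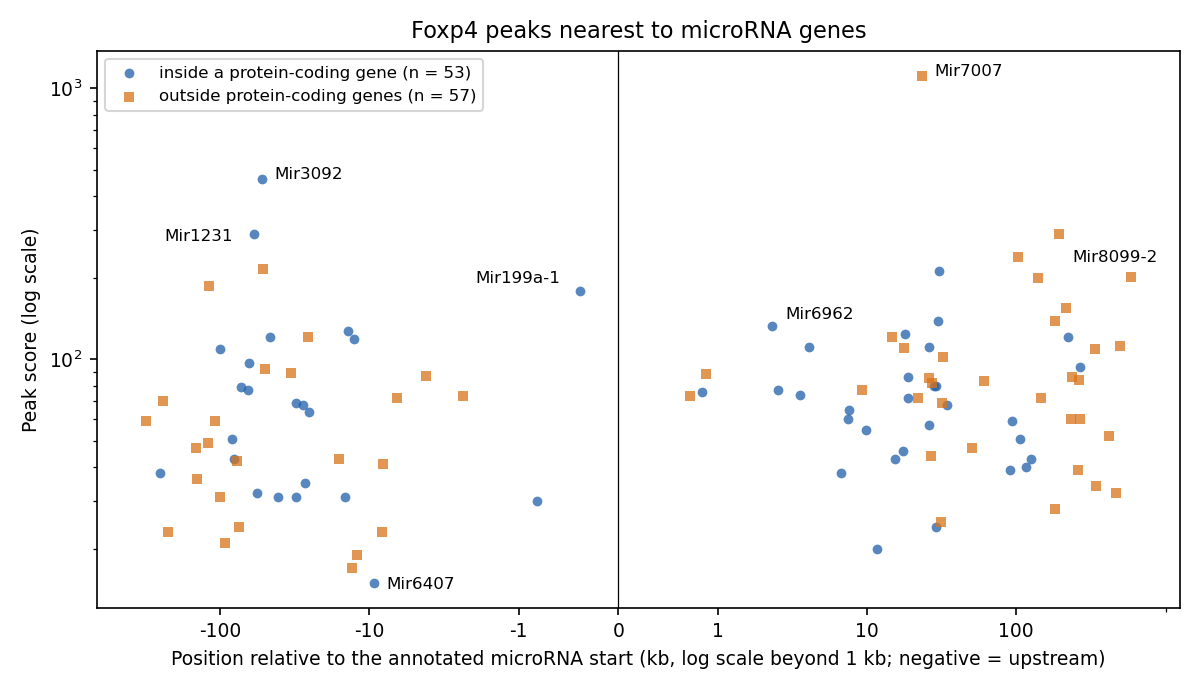
Score (log scale) of the 110 microRNA peaks against the position relative to the annotated microRNA start (kb, log scale beyond 1 kb, negative upstream), as circles for the 53 inside and squares for the 57 outside protein-coding genes. The highest peak, at Mir7007 with a score of 1110, lies outside genes, and the peak 384 bp upstream of Mir199a-1 is the closest.

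The host with the most member peaks was Pde4d, which encodes a phosphodiesterase that breaks down cyclic AMP, the second messenger of adrenergic signalling in fat. All 7 peaks in its 1302 kb were assigned to Mir582 or Mir1904, and the list has none under the name of Pde4d. The 3 peaks of Mir582 lay in intron 3, with scores of 124 at 17.9 kb, 111 at 25.9 kb and 121 at 223 kb downstream of the hairpin. The 4 peaks of Mir1904 scored lower: 60 at 7.44 kb downstream, and 30, 43 and 38 at 0.814, 80.8 and 251 kb upstream. The peak 0.814 kb from Mir1904 is 1 of the 2 members annotated as a promoter.

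Fndc3b, a membrane protein with fibronectin type III domains first described as a factor of adipocyte differentiation, held 5 peaks in 295 kb, all assigned to Mir3092. The highest scored 463 in intron 3 (chromosome 3, 27637406 to 27637972, mm10), which is rank 51 of the 3317 peaks and the second of the members. It lay 52.7 kb upstream of the hairpin, over an annotated (TTG)n repeat, and 6.26 kb from a peak of 121 in the same intron. The other 3 scored 127 in intron 4, 43 in intron 4 and 39 in intron 10. Peaks thus lay on both sides of the hairpin, and those upstream of it had the higher scores. Outside the gene, Fndc3b had 2 peaks under its own name, of 135 and 20.

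**Figure D3:**
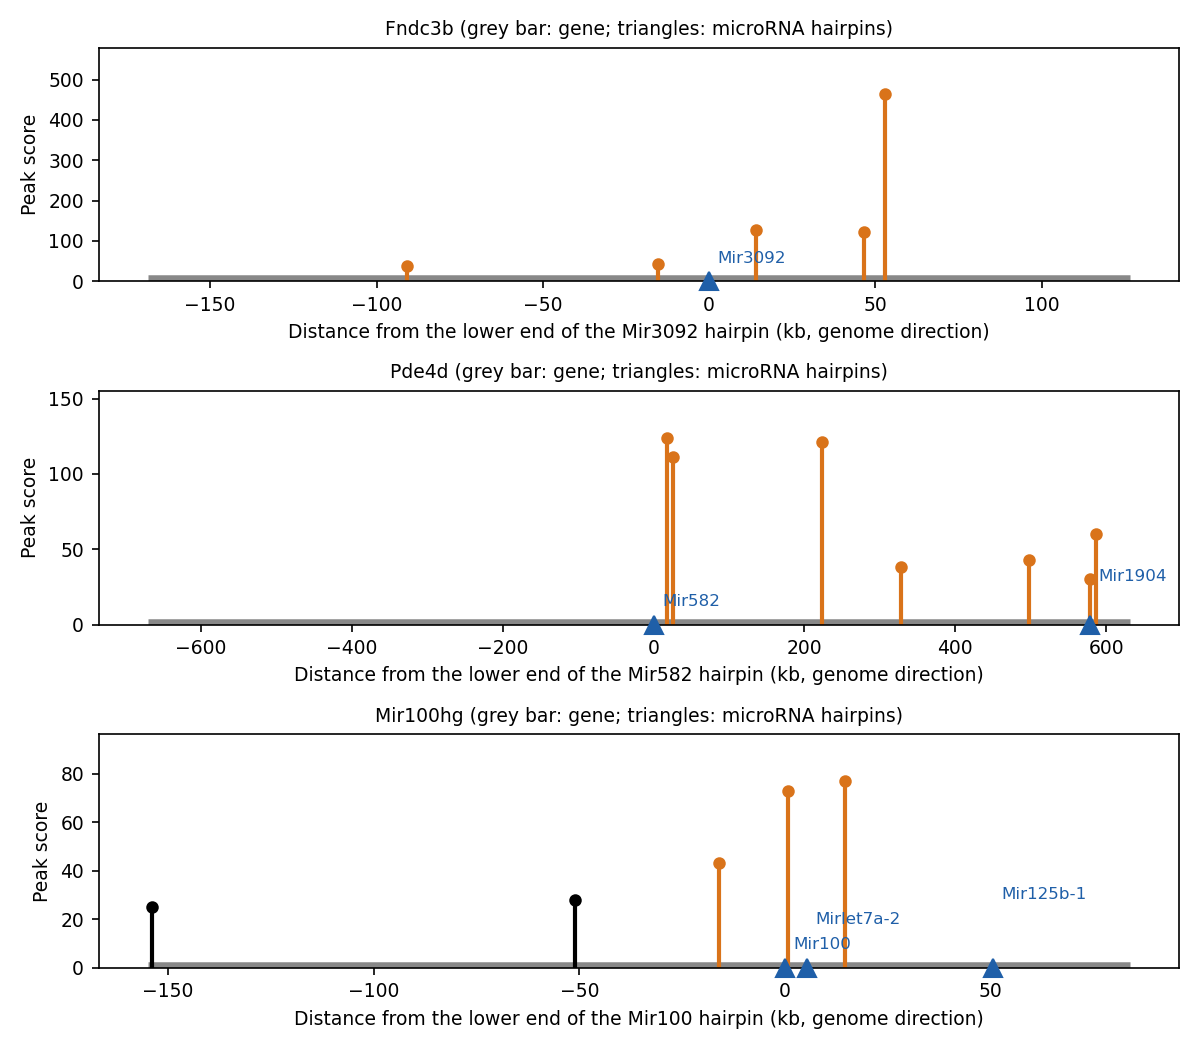
Peaks as stems, height giving the score, along Fndc3b, Pde4d and the non-coding gene Mir100hg (grey bars), by distance from the hairpin named under each panel (kb, genome direction), with hairpins as triangles. Orange stems are microRNA peaks, 5, 7 and 3 in the 3 genes, and the 2 black stems in Mir100hg are peaks assigned to another gene.

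Another 4 hosts had 2 member peaks each. Ccbe1, a secreted protein of lymphatic vessel growth, held peaks of 211 and 51 assigned to Mir694, both in intron 2, and had a peak of 40 under its own name outside it. Scp2, a sterol carrier protein, held peaks of 119 and 111 assigned to Mir6397, whose hairpin lies on the strand opposite to the gene. The second of these lay 4.08 kb from the hairpin over a B1 element. Pid1, an adaptor protein that dampens insulin signalling in adipocytes, held peaks of 86 and 69 in intron 1 assigned to Mir6353 and a peak of 150 assigned to itself. Diaph1, an actin-nucleating formin, held peaks of 74 and 64 assigned to Mir6979, at 3.56 and 25.5 kb from the hairpin.

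The other high peaks in host genes were single. Nav1, a microtubule-binding protein, held a peak of 289 in intron 3 (chromosome 1, 135513800 to 135514348), 59.4 kb upstream of Mir1231, over a (CAAA)n repeat. Nol10, a nucleolar protein, held a peak of 138 in intron 13, 29.9 kb downstream of Mir3066. Acvr1b, a type I receptor for activins, held a peak of 133 in intron 3 (chromosome 15, 101195891 to 101196497), 2.33 kb downstream of Mir6962, and Acvr1b had no other peak.

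The closest of all members belonged to Mir199a-1. Its peak (chromosome 9, 21496694 to 21497203) scored 178, above 89.9% of all peaks, lay 384 bp upstream of the hairpin and is the other member annotated as a promoter. The hairpin (21496495 to 21496564) lies inside Dnm2, the dynamin of endocytosis, on the opposite strand, and Dnm2 had a further peak of 66 assigned to itself. The same mature pair is known from Mir199a-2, whose closest peak, of score 43 and assigned to Dnm3os, was 67.8 kb away. The closest peak to Mir199b was 469 kb away. Of the 3 genes of this family, the copy in Dnm2 was the one with a peak within 10 kb.

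Non-coding hosts held further members: 22 of the 110 lay in a lncRNA gene (20%, interval 13 to 28.7), beside 13.9% of all peaks, 17 of them outside protein-coding genes. Mir100hg, the 239 kb primary transcript of Mir100, Mirlet7a-2 and Mir125b-1, held 5 peaks. Of these, 3 were members: 73 at 0.717 kb downstream of Mir100 and 43 at 16 kb upstream of it, and 77 at 9.24 kb downstream of Mirlet7a-2. The other 2, of score 25 and 28, were assigned to 3110039I08Rik. The closest peak to Mir125b-1 was that of 77, 36 kb away. The 2 highest of the 5 scores were thus those of the peaks within 10 kb of Mir100 or Mirlet7a-2.

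Dleu2, the host transcript of Mir15a and Mir16-1, held 1 peak, of score 73, 2.36 kb upstream of Mir15a and 2.5 kb from Mir16-1. These microRNAs are known as repressors of Bcl2 and of cell cycle genes. Mir22hg held 1 peak, of score 88 in its intron 1, 0.883 kb from its start and 1.29 kb from the Mir22 hairpin.

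Outside genes of both kinds lay 40 members, and 30 of the 57 peaks outside protein-coding genes were over 100 kb from the closest such gene. The highest member of all, nearest to Mir7007, scored 1110 (chromosome 3, 20198574 to 20199195), rank 7 of all peaks. It was intergenic, 23.5 kb downstream of the hairpin and 16.7 kb from Cpa3, a carboxypeptidase of mast cell granules that also holds the hairpin. A peak of 289 lay 195 kb from Mir6354 over an LTR repeat, and Mir6354 had a second peak of 36 at 142 kb. Mir8099-2 had the most distant peak, of 202 at 583 kb, and a further of 112 at 494 kb, with Flrt2, an adhesion protein, 1182 kb from the first as the closest protein-coding gene.

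Mir148a had 3 intergenic peaks, of 238 at 102 kb, 83 at 60.5 kb and 60 at 233 kb, all downstream of the hairpin. miR-148a is known to repress the LDL receptor and the methyltransferase Dnmt1. For the genes with the same seed, the closest peak was 83.2 kb from Mir148b and 452 kb from Mir152. Mir680-3 had 3 peaks upstream, of 87 at 4.2 kb, 216 at 51.5 kb and 187 at 118 kb, and Snx13, a sorting nexin, was the closest protein-coding gene to each. The peaks of 216 and 187 scored above 92.5% and 90.7% of all peaks, while the nearest of the 3 to the hairpin was the lowest.

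Among the remaining genes with several intergenic peaks, Mir6343 had scores of 154, 52 and 34, with Epha4, an ephrin receptor, as the closest protein-coding gene. Mir466f-4 had 200 and 60, with Adamts16, a secreted metalloprotease, closest. Mir6390 had 59, 49 and 24, the closest protein-coding gene being Spry2, an inhibitor of growth factor signalling. Mir6387 had 39 and 28, which lay 249 and 172 kb from Trib2, a pseudokinase and the closest protein-coding gene, and Mir1952 had 47 and 23.

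Mir101a had peaks of 85 and 44 that lay 1.05 kb apart, 25.9 and 27 kb downstream of the hairpin. Mir101b, on another chromosome, had a peak of 47 at 50.6 kb. Their mature forms, repressors of the methyltransferase Ezh2, are printed above and carry the seeds ACAGUAC and UACAGUA. Mir21c had peaks of 109 at 336 kb and 32 at 469 kb, yet a peak of 43 in Nrp1, assigned to Mir1903, was closer to its hairpin at 207 kb. Mir3473f had a peak of 72 outside genes and a peak of 51 in Bcl2, its host. Mir6350 had a single peak of 139, 182 kb away in a lncRNA gene.

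The 20 members within 10 kb of the start include Mir199a-1, Mir6962, Mir6397, Mir22hg, Mir680-3, Mir100, Mirlet7a-2, Mir15a, Mir6979 and the 2 closest of Mir1904, all given above. Of the other 9, the scores ran from 15 to 77. A peak of 77 lay 2.55 kb from Mir717 in Gpc3, a glypican of the cell surface. A peak of 76 lay 0.838 kb from Mir6539 in Dock5, an activator of Rac. A peak of 72 lay 6.56 kb from Mir6385 and 2.59 kb from Pml, the organiser of a nuclear body. The rest were all below the median of the members.

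Those below it were in or near genes of varied function. A peak of 65 lay 7.59 kb from Mir3109 in Anxa2, a membrane-binding annexin, and one of 55 lay 9.84 kb from Mir6896 in Dst, a cytoskeletal linker with a peak of 57 of its own. Mir3089 had a peak of 41 at 8.09 kb and Mir1955 one of 38 at 6.67 kb in Phf21a, a chromatin reader. Mirlet7a-1 had a peak of 23 at 8.24 kb. The lowest member, of 15, lay 9.32 kb from Mir6407 in Xpnpep1, an aminopeptidase, and scored above 0.181% of all peaks.

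Some further hosts were regulators of transcription or chromatin, each with 1 member peak. Ppargc1a, the coactivator of mitochondrial and heat-producing genes, held a peak of 94 (chromosome 5, 51868202 to 51868495) that was assigned to Mir6417, 268 kb away and outside the gene. The deposited annotation calls this peak intergenic, whereas the RefSeq table places it inside the gene. Hmga2, a chromatin protein of proliferating progenitors and a known target of let-7, held a peak of 72 assigned to Mir763. Gli2, a transcription factor of Hedgehog signalling, held 1 of 80 assigned to Mir6346, and Zbtb20, a transcriptional repressor, held 1 of 109 assigned to Mir568, whose hairpin is in Tigit, and a further peak assigned to another gene. Ppargc1a and Zbtb20 had no peak under their own names, whereas Hmga2 had 1 outside its span, of score 52, and Gli2 had 3, of 346, 102 and 95.

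The other genes with a single peak make up 37 of the 110, those just named included. Their scores ran from 17 to 121 with a median of 68, their distances from 11.7 to 313 kb with a median of 31.6 kb, and 20 lay inside a protein-coding gene. The highest, of 121, was 14.8 kb from Mir6367 and 2.21 kb from Ifnar1, a receptor chain for type I interferons, and miR-6367 carries CCCUGAG, the seed of the miR-125 family. A peak of 68 in Cux1, a homeodomain protein, was assigned to Mir721, whose seed AGUGCAA is that of the miR-130 and miR-301 family.

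A peak of 89 nearest to Mir3966 was 89.8 kb from Dcn, which encodes the matrix proteoglycan decorin. A peak of 59, 313 kb from Mir6344, had Irs1, an adaptor of the insulin receptor, as its closest protein-coding gene at 414 kb. A peak of 46 in Evl, an actin regulator, was assigned to Mir342, which shares this host. In all 3 cases the score was below 100, the level that 27% of all peaks reached.

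The let-7 family holds back growth and the Hmga2 and Lin28 genes. Of the 11 genes named Mirlet7, 3 had a nearest peak (27.3%, interval 6.02 to 61), beside 6.44% of all microRNA genes. Mir98, Mir7k and Mir1961 carry the let-7 seed under other names and are not counted here. Their closest peaks were 4484, 1319 and 418 kb away. The interval is wide because only 11 genes are counted, and several sit in shared clusters, so they are not independent. Mirlet7a-2 and Mirlet7a-1 are described above, and Mirlet7i had a peak of 59 at 94.3 kb in Ppm1h, a phosphatase gene next to it. Counted without regard to the assigned gene, 4 of the 11 had a peak within 10 kb (36.4%, interval 10.9 to 69.2), beside 48 of all 1227 microRNA genes (3.91%). These 4 rest on 3 peaks: Mirlet7a-1 and Mirlet7f-1 (8.24 and 8.6 kb from the same peak of 23), Mirlet7a-2 (4.57 kb from the peak of 73) and Mirlet7e (7.72 kb from a peak of 24 assigned to Spaca6). The other 7 were between 10.4 kb (Mirlet7d) and 4483 kb (Mirlet7f-2) from the closest peak.

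Of 85 microRNA genes on a list known from adipose tissue or fat cell differentiation, 6 had a nearest peak (7.06%, interval 2.63 to 14.7), beside 6.44% of all microRNA genes. They were Mir199a-1 (178), Mir29b-1 (121), Mir221 (84), Mir100 (73, with a second of 43), Mir455 (68) and Mir145b (31). Mir29b-1, a repressor of collagen genes, had its peak 26 kb upstream, and the same peak lay 26.3 kb from Mir29a. Mir221, a repressor of the cell cycle inhibitor Cdkn1b, had its peak 264 kb away on the X chromosome. Mir455, known to promote brown fat differentiation, had its peak 34.2 kb away in intron 24 of its host Col27a1, a fibrillar collagen gene. Mir145b had its peak 100 kb upstream, while a peak of 49 under another name was 66.9 kb away. The share of the list with a nearest peak was close to that of microRNA genes in general. Whatever gene a peak was assigned to, 4 of the 85 had one within 10 kb, beside 48 of all 1227 microRNA genes (3.91%). These were Mir199a-1, Mir100, Mir22 (1.29 kb from the peak of 88 of Mir22hg) and Mir125a (7.29 kb from a peak of 24).

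Shared seeds joined few of the members. Genes on chromosome 18 were left out of the counts in this paragraph, family sizes included. Among 65 member genes with a mature sequence in RefSeq there were 93 mature microRNAs with 90 seeds, and 3 seeds belonged to more than 1 member gene. GAGGUAG, the let-7 seed, belonged to Mirlet7a-1 and Mirlet7i of 13 genes. AGCAGCA, the seed of the miR-15 and miR-16 family, belonged to Mir15a and Mir6353 of 11 genes. AGCAGGU belonged to Mir6346 and Mir6350, the 2 genes that have it. The table lists a mature sequence made at several loci under a single one, so Mirlet7a-2 is not counted for let-7a-5p here.

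Most microRNA genes with a peak stood apart from other microRNA genes. No other microRNA gene lay within 10 kb of 69 of the 75 placed genes (92%, interval 83.4 to 97), beside 842 of all 1227 (68.6%). Conversely, of 162 genes with at least 5 others within 10 kb, 0 were among the 75 placed genes, with an upper interval bound of 2.25%. The 4 genes placed elsewhere were not counted as having a peak here. Of these, Mir297c, Mir466h and Mir466d lie close together on chromosome 2 in the RefSeq table. In a cluster only the gene whose start is closest can be named, so the genes of a cluster are not independent. Without regard to the assigned gene, a peak lay within 50 kb of 129 of the 842 isolated genes (15.3%), of 162 of all 1227 (13.2%) and of 0 of the 162 densely clustered genes. The hairpin lay inside a protein-coding gene for 48 of the 75 (64%, interval 52.1 to 74.8), beside 67.6% of all microRNA genes.

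**Figure D4:**
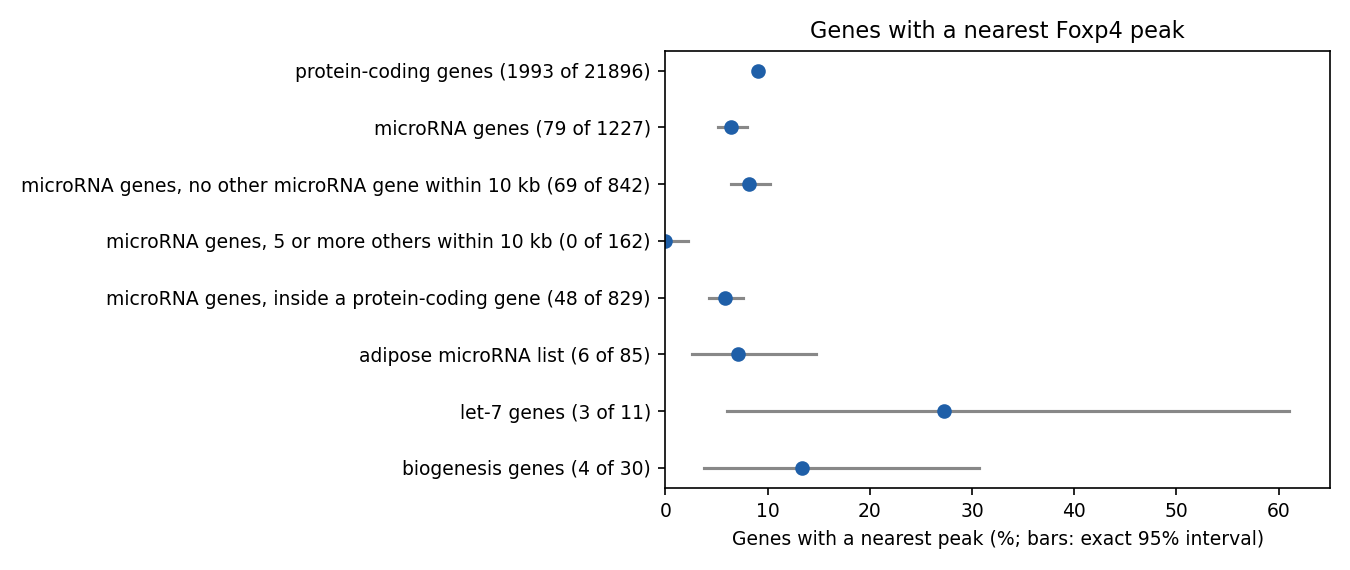
Share of genes that are the nearest gene of at least 1 peak (%, points) with exact 95% binomial intervals (bars), for protein-coding genes, all microRNA genes, microRNA genes by setting, and the 3 gene lists. Densely clustered microRNA genes have 0 of 162, and the wide interval of the let-7 genes spans 6.02 to 61%. The 4 genes placed elsewhere count as having a peak among all microRNA genes, but not in the shares by setting.

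The assignment to the nearest start leaves peaks beside hairpins under other names. Within 10 kb of a microRNA gene lay 42 peaks, 20 of them members and 22 assigned to other genes, next to 48 microRNA genes in all. The promoter peak of Mcm7, a helicase of DNA replication, scored 95 and lay 5.27 kb from Mir106b, with Mir93 and Mir25 also within 10 kb. A promoter peak of Rxrb, a retinoid X receptor, scored 213 and lay 7.22 kb from Mir219a-1. The 1 peak that overlapped a hairpin was assigned to Fam53c (score 115) and covered Mir12191.

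Of the 110 peaks, 10 carried a simple repeat annotation (9.09%, interval 4.45 to 16.1), beside 8.59% of all peaks, and 15 carried a repeat of any kind (13.6%, 7.84 to 21.5), beside 23.3%. In 8 of the 10, the unit was a run of T with 1 G, or its reverse complement with C and A, as at Mir3092 and Mir1231. How often such units occur among the 285 simple repeat peaks of the whole list was not counted. The 10 had a median score of 86.5 (range 31 to 463), and the 100 members without had a median of 69.

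The genes that make and use microRNAs were read from a list of 30 that covers hairpin processing, export, Dicer, the Argonautes, tailing and decay. Of these, 4 had a nearest peak (13.3%, interval 3.76 to 30.7), beside 9.1% of protein-coding genes. Tut7, which adds uridines to let-7 precursors and is named Zcchc6 in the file, had a peak of 112 at 64.6 kb upstream. Tent2, a poly(A) polymerase that extends microRNA ends (Papd4 in the file), had a peak of 45 at 48.8 kb upstream. Srrt, which links capped transcripts to microRNA processing, had a peak of 42 at 0.271 kb downstream. Tnrc6b, a scaffold that joins Argonaute to the machinery of decay, had a promoter peak of 62 (chromosome 15, 80710839 to 80711378). Dis3l2, also on the list and not among the 4, held a peak of 16 in its span that was assigned to Alppl2.

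The Tnrc6b peak covered the whole RefSeq promoter window. The 250 bases before the start site (GRCm38.p6, chr15:80711063-80711312, plus strand) are shown because this was the peak of the pathway that lay on a promoter, with a match to TGTTTA in capitals.
Tnrc6b promoter: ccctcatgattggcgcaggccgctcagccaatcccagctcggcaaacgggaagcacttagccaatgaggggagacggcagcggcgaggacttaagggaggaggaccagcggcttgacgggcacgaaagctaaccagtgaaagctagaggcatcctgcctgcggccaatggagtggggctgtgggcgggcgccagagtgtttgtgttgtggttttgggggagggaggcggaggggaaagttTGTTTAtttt
The forkhead letters TAAACA, or TGTTTA when read on the other strand, matched once in the window, a few bases before the start site. They occur in 13.4% of 32851 RefSeq promoter windows of the same length. The longer form GTAAACA, searched on both strands as well, did not occur in it and occurs in 3.65%. A match is a run of letters and not a measured binding site.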

How the data were processed

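Peaks of 1 Foxp4 library (mm10) were the values used. Per the file headers, the authors annotated a narrowPeak file with HOMER's annotatePeaks.pl, and the score is the deposited whole-number score of each peak, whose unit and scale are unstated. Per the submitters' processing notes, which give no roles, the tools were MACS2, Bowtie2, SAMtools, Picard and deepTools 3.3.0. The use of the input in the calls was not given in the sources used here. Distances, nearest genes, classes and repeats are those of the file, and negative distances are upstream.

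From these values, peak midpoints were placed in gene bodies of a RefSeq table (GRCm38.p6), and hairpins, mature sequences and promoters came from RefSeq tables of the same build. Chromosome 18 was left out of the mature sequences and promoters. For 105 of 106 peaks on their gene's chromosome, the distance matched an end of that gene within 2 bp. Shares have Clopper-Pearson intervals and medians have order-statistic intervals. The code for the intervals was tested on simulated data and the name rule on a short set of names. The other steps were not tested in this way. With 1 library no test between samples was possible. Named were the 15 highest peaks, all within 10 kb, all of the let-7 or adipose lists, genes with 2 or more peaks, the lowest and the most distant member, and the biogenesis genes with a peak. Hosts and genes beyond this rule (Ppargc1a, Hmga2, Gli2, Zbtb20, Mir101b, Mir6367, Mir721, Mir3966, Mir6344, Mir342 and the genes of peaks assigned elsewhere) were chosen after their values were seen. Members and lists were chosen with earlier results of these data known. Alternatives covered score limits, repeats, distance limits, 1 peak per gene, where a peak lies and the assignment. Python 3.11.15, pandas 2.3.3 and SciPy 1.17.1 were used.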

Additional observations from a re-analysis of the deposited data

How the results depend on the processing

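Of 60 alternative values, 52 stayed within 1.5 times the given count, or within the 95% interval of the given median or share, and 8 did not. Among the 52, limiting the distance to 100 kb took the count from 110 peaks to 76 and from 79 genes to 62. Keeping only peaks at or above the median score of all peaks left 61 microRNA peaks, 50 microRNA genes and 1 biogenesis gene, and the median score became 94. Counting every peak within 10 kb of any microRNA gene, whatever gene it was assigned to, gave 42 peaks and 48 microRNA genes. Restricting to peaks within 100 kb of the start raised the share inside protein-coding genes to 60.53% and lowered the intergenic share to 32.89%. The score limit keeps fewer, higher peaks and the distance limit removes distant ones. Members outside protein-coding genes lay farther from the start, at a median of 77.4 kb against 28.1 kb inside. Counting by any microRNA gene is no filter of the members, since 22 of the 42 peaks are not members. Leaving out the 4 genes that the table places elsewhere, or Mir22hg, were alternatives chosen after seeing the data. They keep 106 and 109 of the 110 peaks, so their values could hardly move, and all of them count among the 52. No paired analysis was possible because there was 1 ChIP and 1 input library. Without replicates or depth, a peak missing from the list is not shown to be absent from the cells.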

Other observations

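Over all chromosomes, 75 of 1227 microRNA genes had a nearest peak (6.11%), the 4 genes placed elsewhere not counted here or below. The chromosomes with the lowest and highest shares are given beside X. On chromosome 1, 10 of 64 microRNA genes had a nearest peak (15.6%), and on chromosome 4, 8 of 56 (14.3%). On chromosome 17, 0 of 44 had a nearest peak, on chromosome 7, 1 of 88 (1.14%), and on chromosome 11, 1 of 87 (1.15%). On chromosome X, 2 of 92 had a nearest peak (2.17%), where 56 of the 92 have another microRNA gene within 10 kb and the whole list holds 37 peaks. These values were chosen for naming after they were seen, and the differences between chromosomes were not tested.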
